A study of Mus musculus with 9 samples.

Results

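Open chromatin was compared between mouse LSK cells that had lost Hoxa9 and LSK cells that had lost beta-catenin. Regions counted as differing were called strongly in both libraries of one genotype and outside the strongest peaks of both libraries of the other. There were 165 such regions among the 63307 autosomal regions of the 4 libraries. Of these, 79 were open in HOXA9_KO only, which is 0.125% of all regions, and 86 were open in Bcat_KO only, which is 0.136%. The whole series of 9 libraries held 74587 autosomal regions.

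LSK cells are lineage-negative, Sca-1-positive and Kit-positive cells of the bone marrow, which include the haematopoietic stem cells and the first progenitors. ATAC-seq uses the Tn5 transposase to cut and tag exposed DNA, so that sequenced fragments pile up where chromatin is accessible. The groups were HOXA9_KO (n = 2), Bcat_KO (n = 2), WT (n = 2), PRMT1_KO (n = 2) and dKO, which lacks both beta-catenin and Hoxa9 (n = 1). The sample titles say KO and the genotype tags say knockdown, and the deleted part, the Cre or promoter, the strain and the age are not given in the sources used here. The series text names transplanted Prmt1KO mice as the source of LSK cells and does not say whether the HOXA9_KO, Bcat_KO and WT cells also came from transplants. The labels leave it unsaid if 2 libraries of one genotype are 2 mice, so p-values compare these libraries only and do not speak for mice.

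Hoxa9 is a homeobox transcription factor that binds DNA with Pbx and Meis partners and is expressed in haematopoietic stem and progenitor cells, where it supports self-renewal. Beta-catenin, the product of Ctnnb1, is the effector of canonical Wnt signalling and acts in the nucleus through Tcf and Lef factors, which bind the DNA in its place. Accessible DNA away from gene starts often marks enhancers, and its pattern differs between blood lineages more than that of promoters.

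Of the 165 regions, 5 overlapped the 250 bases before a gene start in the RefSeq table of GRCm38.p6. The 4 that covered more than 13 of those bases are shown, 5′ to 3′ along the strand of the gene, because they are the members whose own sequence could be read. Capitals mark matches to the motifs searched on both strands. These were TGTGGT for Runx factors, AGATAA for Gata factors, GGAAGT for Ets factors, TGACAG for Meis, TTTANGA for Hox factors and TGATTNA for Hox paired with Pbx. The others were CTTTGAT for Tcf/Lef factors, TTGCNCA for the C/EBP family, TGANTCA for AP-1 dimers, CAGCTG for E-box binders and AGGGGGC for the Ctcf core. No 2 matches in the printed windows overlap.
Lipe, open in HOXA9_KO only, minus strand, chr7:25390113-25390362: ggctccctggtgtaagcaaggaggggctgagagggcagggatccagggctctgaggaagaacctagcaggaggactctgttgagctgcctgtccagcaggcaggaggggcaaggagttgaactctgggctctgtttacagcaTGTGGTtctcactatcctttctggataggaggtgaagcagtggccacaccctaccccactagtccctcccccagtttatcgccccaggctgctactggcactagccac
Lrrtm3, open in HOXA9_KO only, minus strand, chr10:64090256-64090505: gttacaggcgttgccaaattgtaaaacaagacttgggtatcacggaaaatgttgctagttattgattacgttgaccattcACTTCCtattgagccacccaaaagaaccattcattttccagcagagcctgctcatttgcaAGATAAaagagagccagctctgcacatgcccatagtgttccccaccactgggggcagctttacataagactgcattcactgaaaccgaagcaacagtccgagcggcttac
Gm34441, open in HOXA9_KO only, plus strand, chr6:55536793-55537042: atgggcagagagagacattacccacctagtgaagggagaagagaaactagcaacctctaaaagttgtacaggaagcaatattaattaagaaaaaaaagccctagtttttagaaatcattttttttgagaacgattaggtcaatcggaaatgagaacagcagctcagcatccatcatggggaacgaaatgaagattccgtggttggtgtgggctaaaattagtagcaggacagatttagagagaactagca
Gmfg, open in Bcat_KO only, plus strand, chr7:28440687-28440936: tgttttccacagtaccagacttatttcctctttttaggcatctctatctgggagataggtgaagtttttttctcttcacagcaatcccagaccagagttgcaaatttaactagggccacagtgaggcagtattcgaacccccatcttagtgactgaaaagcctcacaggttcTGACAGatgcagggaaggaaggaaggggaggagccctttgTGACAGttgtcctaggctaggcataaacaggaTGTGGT

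The promoter of Lipe, the gene of hormone-sensitive lipase, held 1 Runx match 108 bases before the start, and its differing region covered all 250 bases. That of Lrrtm3, a synaptic membrane protein, was also fully covered and held 1 Gata match 110 bases and 1 Ets match 170 bases before the start. Gm34441, a predicted gene, lay under the region nearest to Adcyap1r1, which covered 179 of its bases, and held none of the searched motifs. In Gmfg, a regulator of actin branching in blood cells, 83 bases were covered, with Meis matches at 78 and 38 bases and a Runx match at 6 bases before the start. The region inside Clcn1 reached only 13 bases of the promoter of the predicted gene Gm38797, which held 1 Hox match. Over all 31396 promoters of the table, 14.0% held the Runx letters, 9.94% Gata, 19.8% Ets, 15.7% Meis and 10.3% Hox. The Hox with Pbx letters occurred in 9.0%, Tcf/Lef in 3.23%, C/EBP in 11.3%, AP-1 in 6.77%, E-box in 13.0% and Ctcf in 9.47% of them. None of the 5 promoters held a Tcf/Lef or a Hox with Pbx match. A match describes the letters only, and 5 promoters are too few to compare with those shares. Their GC content was 39.6% at Gm34441, 42.8% at Gm38797, 46.0% at Lrrtm3, 46.4% at Gmfg and 58.8% at Lipe. Only Lipe lay above the mean of 53.4% over all promoters.

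The 4 lists differed in length and depth. HOXA9_KO had 38961 and 40350 autosomal peaks and Bcat_KO 42260 and 44412, a difference of -3680 in the means (39656 ± 982 against 43336 ± 1522, SD, n = 2 each; two-sided exact permutation p = 0.33, the smallest that 2 against 2 allows). Background depth was inferred as the lowest expected background reads, from fold and p, per kb of the library's shortest peak. It was 8.47 ± 0.283 reads per kb in HOXA9_KO and 9.72 ± 0.148 in Bcat_KO (SD, n = 2 each, exact permutation p = 0.33). The shortest peaks were 153 and 138 bp in HOXA9_KO and 137 and 126 bp in Bcat_KO. Inferred depth was 7.38 and 6.29 in WT (183 and 164 bp) and 11.2 and 10.9 in PRMT1_KO (143 and 131 bp). By this measure WT was shallowest and PRMT1_KO deepest of these 8 libraries. The part of peak length in it was not tested. The list of the dKO was far shorter, with 10307 autosomal peaks, and 14.5% of all regions had a peak in it. A missing dKO peak at a region is therefore the usual case. The libraries of WT also stood apart on chromosome Y, which is outside the comparison: they had 0 peaks before its distal end and the other 7 libraries had between 6 and 16. All lists were cut to the strongest 38961 peaks by p (N, the shortest list). After that, the shared fraction of regions (Jaccard index, shared over all) was 0.633 within HOXA9_KO, 0.656 within Bcat_KO and 0.597 to 0.622 between them. By the same rule 550 regions (0.893%) differed between HOXA9_KO and PRMT1_KO and 108 (0.172%) between Bcat_KO and PRMT1_KO. These comparisons share libraries with the 165 regions here (0.261%), and the differences between the 3 counts were not tested.

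Both target genes had a peak at their start in both groups. At the start of Hoxa9 (chr6:52225873-52226481) the summit stood 4.45 and 5.09 times above the local background in HOXA9_KO, and 4.37 and 4.67 times in Bcat_KO. The groups overlapped there, with means of 4.77 ± 0.449 and 4.52 ± 0.211 (SD, n = 2 each). At the start of Ctnnb1 (chr9:120933218-120934073) the fold was 9.43 and 9.70 in HOXA9_KO and 9.19 and 8.77 in Bcat_KO, with means of 9.57 ± 0.195 and 8.98 ± 0.293 (SD, n = 2 each) and no overlap of the libraries. Fold is the authors' value and is not normalized between libraries, and these peaks do not test the deletions, whose position is not given. Within 10 Mb of Hoxa9, 3 regions in each direction differed of 492 (1.22%). Within 10 Mb of Ctnnb1 there was 1 in each direction of 422 (0.474%). Over all autosomal regions the share in both directions was 0.261%, and the difference of either flank from it was not tested.

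The strength that the rule asks for is a description and not a result. A member had to lie among the strongest 19480 peaks (N/2) of both libraries of one group, where a summit held 15 or 16 reads. It also had to lie outside the strongest 38961 of both libraries of the other, where summits held 6 to 8 reads. The 79 HOXA9_KO regions had folds of 5.54 to 13.5 in their libraries, with a median of 8.09, and 15 to 36 reads at the summit. The 86 Bcat_KO regions had folds of 4.30 to 16.9, with a median of 7.91, and 15 to 48 reads. In the full lists, 66 of the 79 had no peak in either Bcat_KO library and 83 of the 86 had none in either HOXA9_KO library. The remaining 13 and 3 had weak peaks beyond N. HOXA9_KO replicate 1 is the list that sets N, so it can hold none. The members were 0.479% of the 16487 regions in the strongest 19480 of both HOXA9_KO libraries and 0.526% of the 16353 such regions of Bcat_KO.

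**Figure D1:**
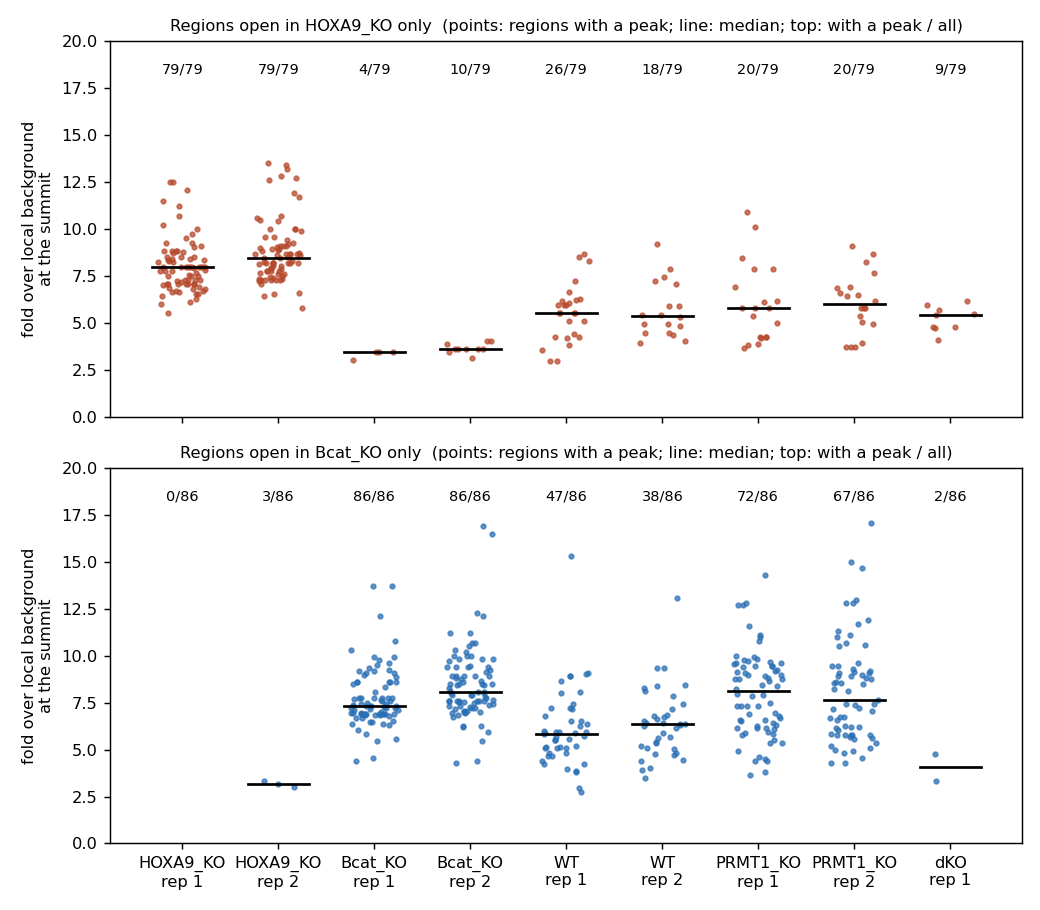
Fold over local background at the summit (vertical axis, linear) of every differing region in each of the 9 libraries, with HOXA9_KO regions above and Bcat_KO regions below. Points are regions with a peak, lines are medians over those points, and the fractions give regions with a peak over all regions. The columns of HOXA9_KO and Bcat_KO show the rule itself, and in the lower panel the columns of PRMT1_KO are nearly as full as those of Bcat_KO, with 72 and 67 of 86.

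Just inside the limit of N/2 was a region in Zranb3 (chr1:128013983-128014247), with folds of 6.84 and 7.07 in HOXA9_KO and a lower rank of 19476. Just outside was chr8:35201235-35202054, with folds of 5.88 and 6.93 and a rank of 19490. At the limit of N, the region near Dkk2 was inside with a rank of 39099 in Bcat_KO replicate 2, and one in Cacna1c (chr6:118593056-118594319) was outside with 38925 in Bcat_KO replicate 1. In the Bcat_KO direction, Sel1l3 (rank 19458) lay just inside N/2 and a region near Phlpp1 (19504) just outside. Tbc1d1 (39461 in HOXA9_KO replicate 2) lay just inside N and a region near Lgi2 (38667 in HOXA9_KO replicate 1) just outside. Members at the limits thus differ from their neighbours outside by very little.

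Among the 12 highest ranked regions of HOXA9_KO, 8 lay inside a gene or within 50 kb of one. The first lay inside Fstl5 (chr3:76251367-76251719), which encodes a secreted follistatin-like protein, at 11.5 and 12.7 times background in HOXA9_KO. None of the other 7 libraries had a peak there. Another member inside Fstl5 (chr3:76094589-76094929) stood at 7.06 and 7.28 and was likewise absent from the other 7.

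Lonrf1, a ring finger protein with a LON domain, followed (chr8:36222958-36223413), at 12.5 and 10.5 in HOXA9_KO, 6.18 and 7.88 in WT and 6.14 and 7.64 in PRMT1_KO. Inside Tbc1d9 (chr8:83244185-83244666), which has a Rab GTPase-activating domain, the fold was 10.00 and 12.6 in HOXA9_KO, 4.25 and 4.92 in WT and 7.88 and 8.65 in PRMT1_KO. A region in Slc35e1 (chr8:72485608-72486131), a member of a nucleotide sugar transporter family, had 8.53 in both HOXA9_KO libraries, 6.22 and 7.04 in WT and 10.9 and 6.85 in PRMT1_KO. In each of these 3 genes the peak was missing from the lists of both Bcat_KO libraries and of the dKO and present in all others.

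Inpp4b (chr8:81854530-81854932), a phosphatase that restrains phosphoinositide 3-kinase signalling, had 9.04 and 10.7 in HOXA9_KO, 2.98 and 5.42 in WT and 5.38 and 5.35 in PRMT1_KO. Ttc27 (chr17:74735407-74735942), a tetratricopeptide repeat protein, had 8.82 and 9.19 in HOXA9_KO, 5.53 and 3.94 in WT, 4.22 and 4.94 in PRMT1_KO and weak peaks of 3.45 and 3.58 in Bcat_KO. The region 35.1 kb from Adcyap1r1 (chr6:55536565-55536971), the receptor of the neuropeptide PACAP, had 8.78 and 13.2 in HOXA9_KO, 8.51 and 7.45 in WT, 8.45 and 6.59 in PRMT1_KO and 5.94 in the dKO. At Adcyap1r1 every library but those of Bcat_KO had a peak.

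The other 5 of these 12 had no peak in WT or PRMT1_KO. The one 1.10 kb from the olfactory receptor gene Olfr459 (chr6:41769780-41770251) stood at 9.50 and 10.4 in HOXA9_KO. The other 4 had no gene within 50 kb: chr10:54761154-54761406 with 10.2 and 10.0, chr2:107231699-107232054 with 11.2 and 9.87, chr15:13477224-13477502 with 9.27 and 9.56, and chr3:156131646-156132047 with 8.83 and 10.6. The dKO had a peak at the chromosome 2 region (4.74) and at the chromosome 3 region (4.79). With Fstl5, 6 of the 12 strongest HOXA9_KO regions were therefore absent from WT and PRMT1_KO, and the other 6 were in all 4 of those libraries.

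In the Bcat_KO direction the highest ranked region had no gene within 50 kb (chr9:3258600-3258941), at 13.7 and 16.9 in Bcat_KO and 3.32 in the dKO, with no peak elsewhere. Heatr3, which helps to import a ribosomal protein into the nucleus, had a region 3.27 kb away (chr8:88175222-88175739) at 9.50 and 16.5 in Bcat_KO, which no other library had. These were the only 2 of the 12 without a peak in PRMT1_KO.

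Fyb2, an adaptor protein related to the T cell adaptor Fyb, had a region in its body (chr4:104948792-104949486) at 13.7 and 11.2 in Bcat_KO, 12.8 and 15.0 in PRMT1_KO and 3.95 in WT replicate 1. Near Epc2, an Enhancer of Polycomb protein of the Tip60 acetyltransferase complex, the region (chr2:49424866-49425168) had 9.93 and 12.1 in Bcat_KO, 9.43 and 11.1 in PRMT1_KO and 8.0 in WT replicate 1. The region 46.7 kb from Klhl2 (chr8:64896844-64897088), a kelch adaptor of ubiquitin ligases, had 9.93 and 11.2 in Bcat_KO, 14.3 and 14.7 in PRMT1_KO and 8.93 and 5.42 in WT. Both PRMT1_KO libraries had a peak at all 3, and HOXA9_KO had none at any of them.

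Of 4 further regions, present in Bcat_KO and both PRMT1_KO libraries but in no WT library, one was inside Fam110b (chr4:5686869-5687313), at 9.27 and 10.0 in Bcat_KO and 5.85 and 6.75 in PRMT1_KO. Near Rnf150, a ring finger protein (chr8:82843776-82843980), the values were 9.61 and 12.3 in Bcat_KO and 7.86 and 6.16 in PRMT1_KO. In Clcn1, the chloride channel of skeletal muscle (chr6:42310620-42310945), they were 12.1 and 9.81 in Bcat_KO and 7.30 and 9.20 in PRMT1_KO. The last of the 4 had no gene within 50 kb (chr8:35288903-35289420), at 9.18 and 10.2 in Bcat_KO and 6.14 and 5.77 in PRMT1_KO. Kif5c, a kinesin heavy chain, and Map3k1, a kinase upstream of the MAP kinase pathways, had a PRMT1_KO peak in replicate 1 alone (5.38 and 7.30). Their Bcat_KO folds were 9.18 and 10.5 in Kif5c (chr2:49654713-49655057) and 9.07 and 10.7 in Map3k1 (chr13:111771345-111771529).

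A member near genes of 17 lists (Hoxa cluster and Hox partners, Wnt genes, DNA replication and repair, blood lineage markers) was found for 4 of the 164 list genes that had any region. All 4 were open in Bcat_KO only, and 0 were open in HOXA9_KO only. Of all 16182 genes with a region, 0.445% had a Bcat_KO region and 0.290% a HOXA9_KO region. Per region the list genes gave 4 of 868 (0.461%), beside 0.136% over all regions. The lists were drawn up with results of these data known, so this count is a description.

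Xrcc4, the partner of DNA ligase IV in non-homologous end joining, had its region inside the gene (chr13:89889096-89889449). The fold was 10.8 and 9.84 in Bcat_KO, 15.3 and 13.1 in WT and 12.7 and 17.1 in PRMT1_KO, against 3.19 in HOXA9_KO replicate 2 and no peak in replicate 1. The dKO had no peak at Xrcc4 either, so strong peaks were present in both libraries of each paired group except HOXA9_KO.

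Lyn, a Src family kinase of myeloid and B cells, had its member inside the gene (chr4:3724671-3725030) at 8.59 and 9.12 in Bcat_KO and 8.25 and 9.46 in PRMT1_KO, with none in WT or HOXA9_KO. Cebpa, the transcription factor of myeloid commitment, had one 2.94 kb from the gene (chr7:35124864-35125071) at 6.46 and 6.28 in Bcat_KO and 6.06 in PRMT1_KO replicate 2, with none in WT. Ebf1, which commits cells to the B lineage, had an intragenic one (chr11:44881186-44881664) at 7.49 and 7.04 in Bcat_KO, 7.30 and 7.41 in PRMT1_KO and 5.53 in WT replicate 1. The start of Cebpa itself had a peak in all 4 libraries, with 9.74 and 11.0 in HOXA9_KO and, without overlap, 11.7 and 13.0 in Bcat_KO. So did the start of Ebf1, with 6.58 and 7.51 in HOXA9_KO and 5.71 and 8.54 in Bcat_KO, where the groups overlapped.

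No gene of the Hoxa cluster (13 regions), of the Hox partners (65 regions) or of the Wnt targets and feedback genes (66 regions) had a differing region. The share over all regions is 0.261%, so lists of this size would hold few or no members at that share, and these counts of 0 are not a result about the genes. Nor had any of the 7 stem cell factors known as the heptad (87 regions) or of the 29 DNA replication genes with a region (58 regions), and Xrcc4 was the 1 DNA damage gene of 18 that had one. All 25 replication genes and all 16 DNA damage genes with a start in the promoter table had a start peak in all 4 libraries. The start of Meis1, a Hox partner, had folds of 10.5 and 12.6 in HOXA9_KO and 10.6 and 11.0 in Bcat_KO. That of Axin2, a feedback gene of Wnt signalling, had 9.65 and 8.17 in HOXA9_KO and 7.06 and 7.28 in Bcat_KO. Other list genes had a start peak in both libraries of one group and in neither of the other, though none of these was a member. In HOXA9_KO these were Hoxa5 (7.04 and 6.62) and Pbx2 (2.89 and 4.29). In Bcat_KO they were Il7r of the B cell list (9.23 and 6.54) and Sp5 of the Wnt list (3.18 and 4.61). Of the 7 stem cell markers with a start in the promoter table, 5 had a start peak in all 4 libraries. Kit, which defines LSK cells, was among the 5, with 10.1 and 7.78 in HOXA9_KO and 8.36 and 7.87 in Bcat_KO. Ly6a, the gene of Sca-1, had 1 region, which did not differ. Of the markers of other cell types with a start in the table, 4 of 9 myeloid, 3 of 5 erythroid, 3 of 4 megakaryocyte, 1 of 7 B cell, 1 of 7 T and NK, 1 of 5 mast cell and 2 of 3 stromal and endothelial genes had a start peak in all 4. Those with a peak in all 4 included Cebpa, Cebpb, Gfi1 and Irf8 of the myeloid list, Ebf1 of the B cell list and Gata3 of the T and NK list. No start peak in any of the 4 was found for 3 myeloid, 4 B cell and 4 T and NK genes, among them Mpo, Elane, Cd79a and Cd3e. Of the stem cell markers, Procr had no start peak in HOXA9_KO replicate 1, and Slamf1 had none in replicate 1 of either group.

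In the 5 libraries that the rule did not use, the directions had unlike patterns. A peak in both PRMT1_KO libraries was present at 63 of the 86 Bcat_KO regions (73.3%, 95% Wilson interval 63.1% to 81.5%) and at 12 of the 79 HOXA9_KO regions (15.2%, 8.91% to 24.7%). Both WT libraries had a peak at 28 Bcat_KO regions (32.6%, 23.6% to 43.0%) and at 14 HOXA9_KO regions (17.7%, 10.9% to 27.6%). These intervals cover counting error only, since the regions are not replicates, and the difference between directions was not tested. Over all autosomal regions, 49.0% had a peak in both PRMT1_KO libraries and 35.5% in both WT libraries. The WT share of the Bcat_KO regions thus lay near the share over all regions.

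Library by library, the HOXA9_KO regions had a peak in 32.9% and 22.8% of cases in WT, 25.3% and 25.3% in PRMT1_KO and 11.4% in the dKO. For the Bcat_KO regions the shares were 54.7% and 44.2% in WT, 83.7% and 77.9% in PRMT1_KO and 2.33% in the dKO. In the WT and PRMT1_KO libraries the Bcat_KO regions thus had the higher share each time. In the dKO, with 9 against 2 regions, they had the lower. The dKO list is short: 14.5% of all autosomal regions had a peak in it. In the same ranges of ranks the dKO shares were 24.5% for HOXA9_KO and 31.6% for Bcat_KO. Over all autosomal regions the shares were 49.3% and 40.5% in WT and 60.0% and 54.6% in PRMT1_KO. By inferred depth, PRMT1_KO is deepest and WT shallowest of these groups. Depth thus moves with the shares of the Bcat_KO regions, and its part was not tested. For the HOXA9_KO regions the share was 32.9% in WT replicate 1 (7.38 reads per kb) and 22.8% in WT replicate 2 (6.29). It was 25.3% in both PRMT1_KO libraries (11.2 and 10.9 reads per kb), and the part of depth in these shares was not tested either. All regions with ranks in the same range were far more often present: for HOXA9_KO (8627 regions) in 89.0% and 82.7% of cases in WT and 95.8% and 94.3% in PRMT1_KO, for Bcat_KO (11956 regions) in 93.4% and 88.9% and in 98.9% and 98.3%. The rule picks regions missing from 2 libraries, and these reference regions were not picked that way.

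**Figure D2:**
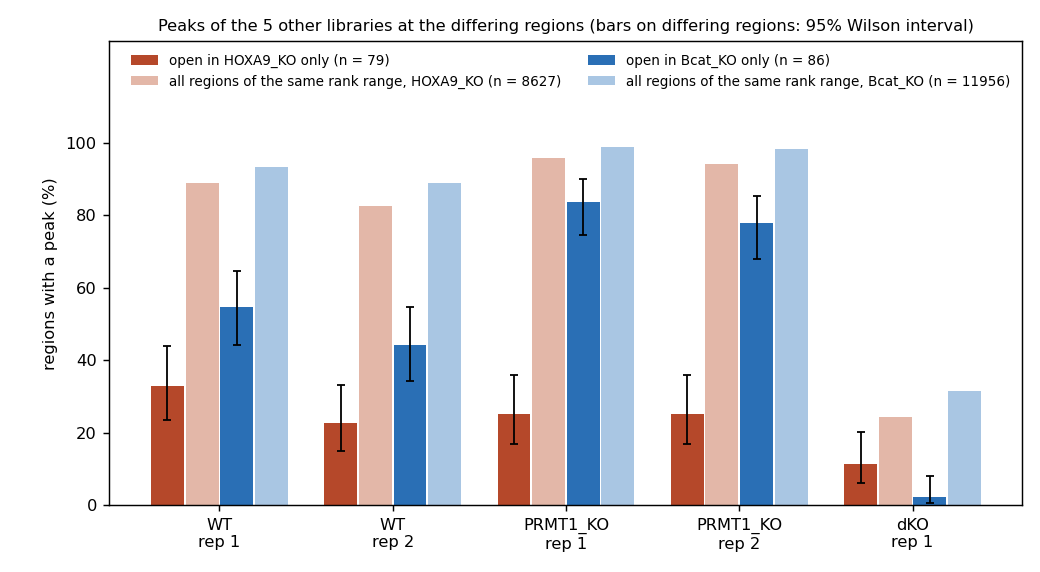
Share of regions with a peak (vertical axis, percent) in each WT, PRMT1_KO and dKO library, for the HOXA9_KO regions, the Bcat_KO regions and all regions of the same range of ranks. Error bars are 95% Wilson intervals over regions, and the Bcat_KO bars stand at 83.7% and 77.9% in PRMT1_KO where the HOXA9_KO bars stand at 25.3%.

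These shares depend on the libraries. Without Bcat_KO replicate 1 or replicate 2, 36.0% and 37.5% of the HOXA9_KO regions had a peak in both PRMT1_KO libraries, and 59.2% and 58.0% of the Bcat_KO regions. The PRMT1_KO share of HOXA9_KO regions stayed below that of Bcat_KO regions in all 16 settings computed. The WT share was lower in 15 of 17 settings. The exceptions were without Bcat_KO replicate 2 (22.5% against 21.3%) and without replicate 1 (22.0% against 21.3%). These settings include the main one, and merging at 100 shared bases or over all 9 libraries gave the same counts as it. Counting a WT peak of any rank could not differ from it, since both WT lists are shorter than N. Without HOXA9_KO replicate 1, the WT share of HOXA9_KO regions was 9.79%. The number of members itself rises when any library is left out, since fewer lists must concur: to 283 HOXA9_KO regions without HOXA9_KO replicate 2, 327 without its replicate 1, 267 without Bcat_KO replicate 2 and 214 without its replicate 1. For Bcat_KO regions the same omissions gave 338, 273, 343 and 395.

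Combined over WT and PRMT1_KO, 40 of the 79 HOXA9_KO regions (50.6%) had no peak in any of the 4 libraries and 11 (13.9%) had one in all 4. Of the 86 Bcat_KO regions, 8 (9.30%) had none and 26 (30.2%) had one in all. Over all autosomal regions 29.3% had none and 32.8% had one in all 4, so the 30.2% of Bcat_KO lay near the overall share. Another 24 Bcat_KO regions were in both PRMT1_KO libraries and 1 WT library, and 13 in both PRMT1_KO libraries and no WT library. No HOXA9_KO region had that last pattern. Of the 40 HOXA9_KO regions absent from WT and PRMT1_KO, 5 had a dKO peak, so that 35 of the 79 (44.3%) had no peak in any of the 5 other libraries. The corresponding number for Bcat_KO was 7 of 86 (8.14%), and the share over all autosomal regions was 28.9%.

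**Figure D3:**
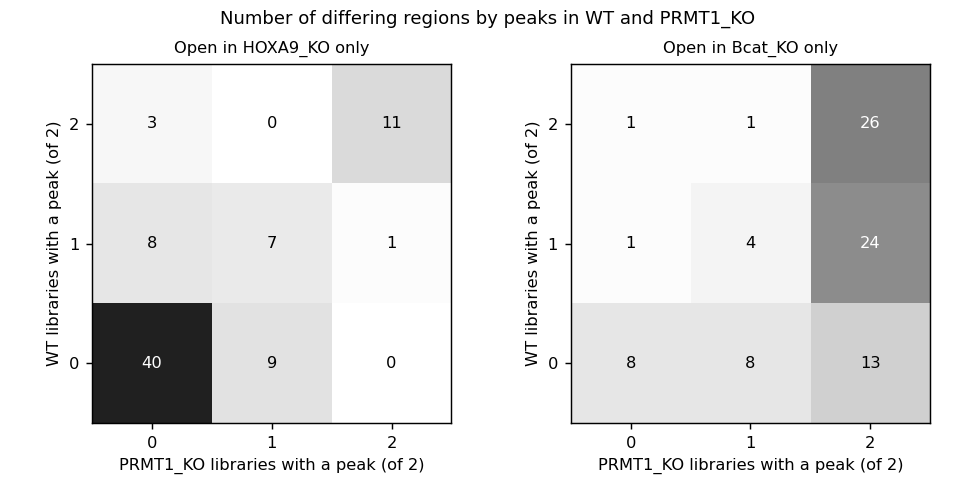
Number of differing regions by how many of the 2 PRMT1_KO libraries (horizontal axis) and of the 2 WT libraries (vertical axis) had a peak, for HOXA9_KO regions at left and Bcat_KO regions at right. The HOXA9_KO regions gather where neither group has a peak (40 of 79), and the Bcat_KO regions where both PRMT1_KO libraries have one (13, 24 and 26 of 86).

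Some members with these patterns lie in genes that act in blood cells, and they are named here after their values were seen. Apbb1ip, which links Rap1 to integrins, had a region present everywhere but in HOXA9_KO and the dKO (chr2:22864638-22864946): 9.07 and 9.23 in Bcat_KO, 9.09 and 9.35 in WT and 9.46 and 12.8 in PRMT1_KO. Lcp2, the adaptor SLP-76, had the same pattern (chr11:34072436-34072902), with 8.36 and 7.31 in Bcat_KO, 6.37 and 6.33 in WT and 6.69 and 5.22 in PRMT1_KO. The region 6.76 kb from the complement receptor gene C3ar1 (chr6:122862917-122863309) had 7.77 and 8.49 in Bcat_KO, 8.93 and 8.37 in WT and 11.6 and 13.0 in PRMT1_KO. At these 3 genes HOXA9_KO was the only paired group without a peak.

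Ifngr2, a chain of the interferon-gamma receptor, had 7.39 and 7.53 in Bcat_KO (chr16:91553738-91554275), 6.92 and 5.56 in PRMT1_KO and 4.69 in WT replicate 2. Near Fasl, the ligand of the death receptor Fas (chr1:161798722-161799189), the folds were 7.31 and 6.74 in Bcat_KO, 8.74 and 8.57 in PRMT1_KO and 6.35 in WT replicate 2. The Gmfg promoter region had 4.55 and 4.42 in Bcat_KO and 4.49 and 4.27 in PRMT1_KO, with none in WT. Its fold was low for a member although its summits held 37 and 36 reads.

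In the HOXA9_KO direction, Pou2f2, which encodes the B cell factor Oct2, had 6.66 and 7.30 in HOXA9_KO (chr7:25105911-25106224), 5.53 in WT replicate 1 and 3.63 and 6.46 in PRMT1_KO. The Lipe promoter region had 6.53 and 8.18 in HOXA9_KO, 3.55 and 4.37 in WT and a weak peak of 3.42 in Bcat_KO replicate 2. At Lrrtm3 the folds were 6.82 and 13.5 in HOXA9_KO, 6.66 in WT replicate 1 and 5.77 in PRMT1_KO replicate 2, so its HOXA9_KO libraries were far apart. Lair1, an inhibitory collagen receptor of leukocytes (chr7:4026565-4027259), had 7.95 and 7.28 in HOXA9_KO, 5.11 and 4.43 in WT and 5.76 and 3.71 in PRMT1_KO.

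Members of both directions were rarely at gene starts. A gene start (or either gene end, where the table gives no start) lay within 1 kb of 3 HOXA9_KO regions (3.80%) and 4 Bcat_KO regions (4.65%), beside 23.7% of all autosomal regions and 37.1% and 42.4% of regions in the same ranges of ranks. Gene bodies held 35 HOXA9_KO regions (44.3%) and 41 Bcat_KO regions (47.7%), beside 39.6% of all regions. The directions parted in the space between genes: 30 HOXA9_KO regions (38.0%) had no gene within 50 kb, against 13 Bcat_KO regions (15.1%). That share was 12.1% over all regions and 9.88% and 8.22% in the same ranges of ranks. Between genes but within 50 kb of one lay 11 HOXA9_KO regions (13.9%) and 28 Bcat_KO regions (32.6%). Gm, Rik and LOC genes were counted here only where RefSeq lists them as protein-coding.

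**Figure D4:**
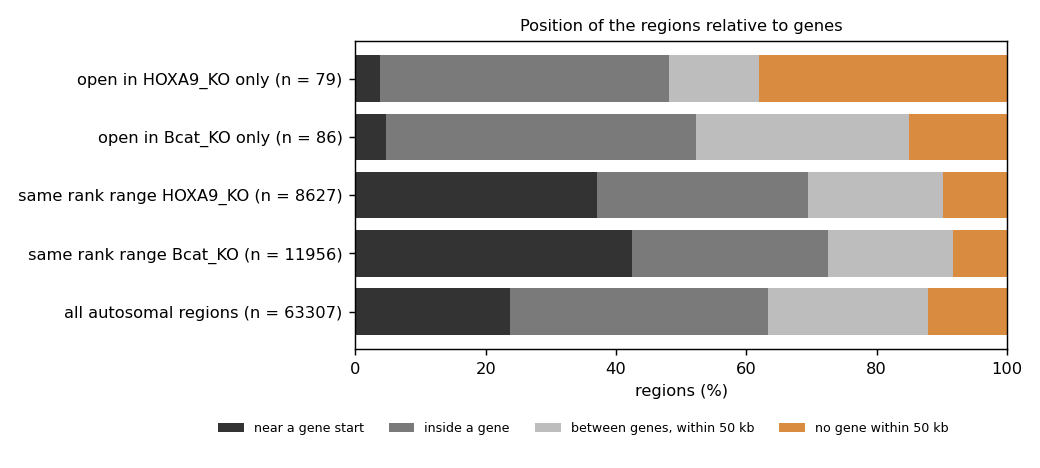
Share of regions (horizontal axis, percent) near a gene start, inside a gene, between genes within 50 kb of one, or farther from any gene, for the 2 directions, for regions of the same ranges of ranks and for all autosomal regions. The dark segment is 3.80% and 4.65% in the differing regions, and the orange segment is 38.0% in the HOXA9_KO regions.

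The share of HOXA9_KO regions far from genes fell with most changes of the rule, to 23.2% to 27.8% when 1 library was left out. It was above the Bcat_KO share in 15 of 16 settings, the main one included. It was below it with the stricter limits of N/4 and N/2 (21.1% against 26.3%, of 19 regions each). Of the 40 HOXA9_KO regions with no peak in WT or PRMT1_KO, 21 had no gene within 50 kb, and of the 11 present in all 4 of those libraries 1 had none. The median width of the members was 407 bp in HOXA9_KO and 326.5 bp in Bcat_KO. Regions in the same ranges of ranks were wider, with medians of 632 and 670 bp. The median over all regions was 355 bp, below that of the HOXA9_KO members and above that of the Bcat_KO members. A width spans the merged peaks of all 4 lists, and most members had peaks in the lists of 1 group only. The rule itself thus bears on the gap to regions of the same ranks, and this gap is a description.

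Chromosomes 1, 3 and 8 were furthest above their share of regions. HOXA9_KO had 12 of its 79 regions on chromosome 1 and 12 on chromosome 3 (15.2% each, beside 7.18% and 5.88% of all regions). Chromosome 8 held 16 of the 165 (9.70%, beside 5.28%), 6 in HOXA9_KO and 10 in Bcat_KO. Of its 6 HOXA9_KO regions, 5 had a peak in all WT and PRMT1_KO libraries: those in Lonrf1, Tbc1d9, Slc35e1, Inpp4b and Nwd1. On the other autosomes 6 of 73 had that pattern. Without chromosome 8, a peak in both WT libraries was found at 9 of the other 73 HOXA9_KO regions (12.3%) and a peak in both PRMT1_KO libraries at 7 (9.59%). For Bcat_KO, 2 of the 10 regions on chromosome 8 were in all 4 libraries and 24 of the 76 elsewhere.

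**Figure D5:**
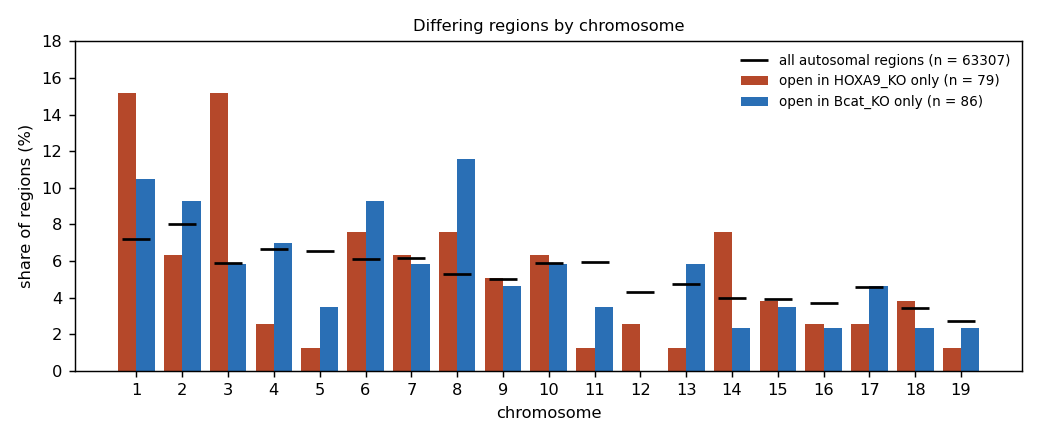
Share of the HOXA9_KO regions, of the Bcat_KO regions (bars) and of all autosomal regions (black lines) on each autosome, in percent. The bars pass the lines most on chromosomes 1 and 3 for HOXA9_KO (15.2% each) and on chromosome 8 for Bcat_KO (11.6%).

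Several members lay close together. Joining neighbours up to 1 Mb apart gave 17 groups of 40 regions, 10 of them with both directions. How many groups as many other regions would form was not computed, so these counts are a description. The group of 5 was on chromosome 1 (chr1:13531568-14488157) around Tram1, Lactb2 and Eya1, with 3 Bcat_KO and 2 HOXA9_KO regions. The closest pair of opposite members lay 16.3 kb from end to end near Dkk2, a secreted modulator of Wnt receptors. Its HOXA9_KO region (chr3:132050994-132051625) had 7.95 and 7.60 in HOXA9_KO, 4.02 in Bcat_KO replicate 2 and 4.99 in PRMT1_KO replicate 1. The Bcat_KO region (chr3:132035301-132035457) had 7.21 and 7.93 in Bcat_KO, 5.15 and 6.25 in WT and 9.97 and 9.28 in PRMT1_KO. WT thus had a peak at the Bcat_KO region alone. Ednra, an endothelin receptor, held 2 Bcat_KO regions within 23.1 kb. Their folds were 7.77 and 8.43 at one (chr8:77689080-77689288) and 6.69 and 7.21 at the other (chr8:77711730-77712138).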

How the data were processed

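ATAC-seq peak lists of 9 libraries were used, 4 of them for the comparison. Per the labels, 50000 LSK cells were tagmented for 30 min at 37 °C, amplified over 10 cycles and size-selected for 170 to 800 bp. Per the submitters' processing notes, reads were processed with Bowtie2 2.4.2, SAMtools 1.14, Picard 2.27.4 and MACS2 on GRCm38/mm10. The authors called peaks per library, with no normalization between libraries in the values. The deposited lists give a score, the fold enrichment at the summit (a ratio to local background), the −log10 p-value and −log10 q-value, and a summit offset, which was not used for the main rule.

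From these, autosomal peaks of the 4 lists sharing at least 1 bp were merged, ranked by −log10 p within each list and compared by the N/2 and N rule (N = 38961). Members were called by rank alone. Folds are printed as the authors' values, and whether folds of 2 groups overlap describes those values only, since they are not normalized between libraries. Summit reads were recovered from fold and p (whole within 0.01), for all libraries but the dKO. For the same libraries, depth also used the length of the shortest peak. Totals of reads are not in the lists, and a missing peak may lie below the detectable level. With 2 libraries against 2, the exact permutation test cannot give a p below 0.33, so no region was tested. Differences between libraries were tested by two-sided exact permutation, and shares of regions carry 95% Wilson intervals. Replicate numbers only name libraries.

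Genes and promoters came from RefSeq GRCm38.p6, the same build. Named regions are the 12 per direction with the best lower rank, those nearest a list gene, the target loci and those at the limits; others were chosen after their values were seen. The members and lists were chosen with earlier results of these data known. Motifs and GC content at summits were not computed, because no genome was used here. Python 3.11.15, pandas 2.3.3, scipy 1.17.1 and statsmodels 0.14.6 were used. The code of the rule was checked on simulated lists with planted differing regions. That check gives no rate of false calls in the lists used here.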

Additional observations from a re-analysis of the deposited data

Results flagged for a closer look

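Chromosome Y lay outside the autosomal comparison. Before its distal end, which begins at 90 Mb, HOXA9_KO had 15 and 16 peaks and Bcat_KO 13 and 12, while both WT libraries had 0. These counts stand out because the control libraries had none. HOXA9_KO and Bcat_KO were alike in this, so the count does not separate the groups compared, and WT differs from both.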

How the results depend on the processing

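No paired analysis was possible because the regions come from a rule with no test and the replicate numbers only name the libraries. Of 14 alternatives, 7 kept the count of HOXA9_KO regions within 1.5 times of 79, and 7 kept that of Bcat_KO regions within 1.5 times of 86. With N/4 and N/2 both counts were 19, and with a −log10 q of at least 5 they were 44 and 42. Requiring summits within 250 bp of the strongest summit gave 141 HOXA9_KO regions, and the lists as deposited gave 155 Bcat_KO regions. Leaving out 1 library gave 214 to 327 HOXA9_KO and 273 to 395 Bcat_KO regions.

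With N/4 and N/2, both WT libraries had a peak at 36.8% of HOXA9_KO and 73.7% of Bcat_KO regions, and both PRMT1_KO libraries at 36.8% and 89.5%. With a −log10 q of at least 5 the PRMT1_KO share of Bcat_KO regions was 83.3%. Leaving out 1 library gave WT shares of 9.79% to 22.5% and 21.3% to 41.4%, and PRMT1_KO shares of 13.8% to 37.5% and 58.0% to 82.0%. The share of HOXA9_KO regions with no gene within 50 kb was 21.1% with N/4 and N/2, 27.3% with the stricter q, 22.0% with the summit rule, 27.0% without peaks under 200 bp and 23.2% to 27.8% without 1 library. That of Bcat_KO regions was 26.3% with N/4 and N/2. These settings also change the number of regions or of libraries, and the causes of the shifts were not tested. The alternatives for PRMT1_KO, for distance to genes and without chromosome 8 were chosen after seeing the data.

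HOXA9_KO had fewer peaks than Bcat_KO with a −log10 q of at least 5 (difference of -1568, exact permutation p = 0.33). Without peaks under 200 bp the difference was -102 (exact permutation p = 1.00). Leaving out 1 library also kept the lower peak count and the lower depth of HOXA9_KO. That could not have turned out otherwise, because the libraries of the groups do not overlap in either measure. The planned motif search at summits was not run. At 6 to 8 summit reads at the edge of the lists, weaker peaks are not detectable.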
